A study of Mus musculus with 12 samples.

Results

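A stretch of mouse chromosome 1 held several Nrf2 peaks in macrophages with the mutant Nrf2 AY protein and none in wild-type macrophages. The stretch is the 1 Mb interval chr1:39000001-40000000 of the mm9 genome. It was named for the genes from Npas2 to the start of Map4k4; the place of these genes in the mm9 interval was not checked, since no mm9 annotation was used. It was chosen by the peak lists themselves, as an interval with a cluster of peaks in AY libraries and without a peak in any wild-type (WT) library. The difference between the genotypes inside it is therefore a description and was not tested. All peaks of the 6 chromatin immunoprecipitation (ChIP) libraries that overlapped the interval were taken, 13 of 8644 peaks. Where peaks overlapped by at least 1 bp they were merged, which gave 8 regions of the 4147 regions in the whole data set.

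The cells were peritoneal macrophages drawn into the peritoneum of mice aged 7 to 8 weeks with 4% thioglycolate broth and collected 4 days later. All of them had been treated in culture with diethyl maleate (DEM), an electrophile, at 100 µM for 4 hours, so no untreated cells were compared. One genotype was wild type and the other Nrf2(AY/AY), homozygous for the AY allele. Each genotype had 3 ChIP libraries made with an antibody against Nrf2, and peaks were listed per library. The labels do not say whether the libraries came from separate animals, and peak lists hold no expression values with which the cell type could be checked.

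Nrf2 is the transcription factor that switches on genes for detoxification and for defence against oxidants when electrophiles release it from its inhibitor Keap1. It binds DNA as a pair with a small Maf protein, at sequences known as antioxidant response elements. The AY allele is known to replace an alanine in the DNA-contacting part of Nrf2 with the tyrosine that Maf proteins carry at the matching place. A peak is a stretch where reads of the precipitated DNA pile up beyond the peak caller's threshold, and a missing peak shows only that this threshold was not reached.

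The genes that name the locus have varied roles. Npas2 encodes a basic helix-loop-helix transcription factor of the circadian clock, a close relative of Clock. Tbc1d8 encodes a protein with a domain typical of regulators of Rab GTPases, which steer vesicle traffic. Rnf149 encodes a RING-type ubiquitin ligase. Creg2 encodes a secreted glycoprotein, and Rfx8 a member of the regulatory factor X family of DNA-binding proteins. Map4k4 encodes a serine/threonine kinase of the STE20 family that acts upstream of JNK signalling. In the order of a RefSeq gene table, the run from Npas2 to Map4k4 held 21 genes, 9 of them protein-coding. These were the 6 genes above with Rpl31 and Cnot11, which encode a ribosomal protein and a subunit of the CCR4-NOT deadenylase complex, and the predicted gene Gm3646. The rest were 5 pseudogenes, 4 long noncoding RNAs and 3 small nucleolar RNAs. That table is on GRCm38, another build than the peaks, so it gave names and order only, and no peak was assigned to a gene, exon or promoter.

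The 13 peaks came from the 3 AY libraries in unequal numbers. AY replicate 1 held 7 of its 2154 peaks in the interval, AY replicate 2 held 4 of 1441, and AY replicate 3 held 2 of 1086. WT replicates 1, 2 and 3 held 0 of 1604, 0 of 826 and 0 of 1533. The groups did not overlap, as the choice of the interval required. The AY mean was 4.33 ± 2.52 peaks (SD, n = 3). As a share of its own list, the interval took 0.325% of AY replicate 1 (95% Wilson interval 0.158% to 0.669%), 0.278% of AY replicate 2 (0.108% to 0.712%) and 0.184% of AY replicate 3 (0.0505% to 0.669%). These AY intervals overlapped throughout. The WT intervals began at 0 and had upper limits from 0.239% (WT replicate 1) to 0.463% (WT replicate 2). Each WT interval thus overlapped every AY interval. All of these intervals cover counting error only. The longer the AY list, the more peaks of the interval it held. Read depth is unknown for every library, and how far it set these numbers was not tested.

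**Figure D1:**
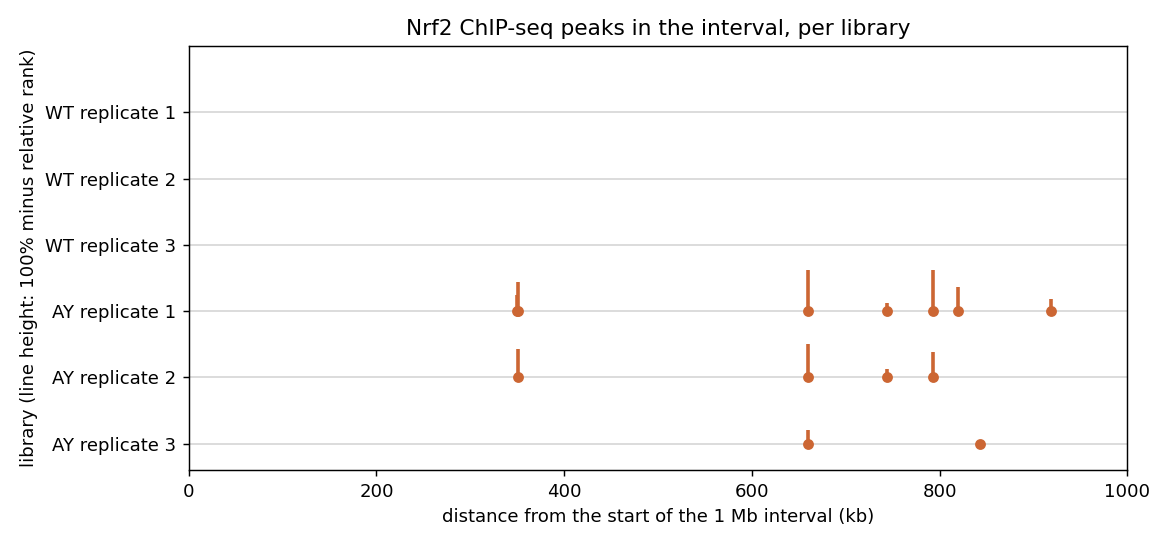
Peaks in the interval by library. The x axis is the distance from the interval's start in kb; each dot is a peak at its midpoint, and the line above it is the taller the better its score ranked in the list. Regions 1 and 2, near 350 kb, almost coincide at this scale; the 3 WT rows are empty.

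The AY libraries shared part of the regions, and only region 3 was present in all of them. Counted along the chromosome, region 3 had a peak in 3 of 3 AY libraries, and regions 2, 4 and 5 had peaks in AY replicates 1 and 2. Regions 1, 6 and 8 were seen in AY replicate 1 alone and region 7 in AY replicate 3 alone. Thus 1 of 8 regions was held by every AY library and by no WT library, where 9.38% of all 4147 regions were. Peaks of 2 or 3 AY libraries, without WT, were found at 4 of the 8, against 19.4% of all regions. Since the interval was picked for lacking WT peaks, nothing is read from either comparison. The other 4 regions, seen in a single library, compare with 49.4% of all regions in the data set.

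Region 3 was chr1:39659165-39659948, 784 bp wide. Its score ranked 486 in AY replicate 1 (relative rank 22.6%, the rank as a percentage of the list's length, with the highest score first). The rank was 521 in AY replicate 2 (36.2%) and 801 in AY replicate 3 (73.8%). The site thus stood in the upper part of the lists of AY replicates 1 and 2 and in the lower part of that of AY replicate 3. The peaks of the 3 libraries had 417 bp in common, chr1:39659334-39659750, and their midpoints lay within 50.5 bp of each other. Among the 389 regions with peaks in all AY and no WT libraries, region 3 was number 257 by mean relative rank (44.2%), so it was not among the stronger of them.

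Region 5, chr1:39792975-39793802, held the highest-ranked peak of the interval and was also its widest region, at 828 bp. Its peak ranked 467 in AY replicate 1 (21.7%) and 743 in AY replicate 2 (51.6%). AY replicate 3 had no peak there. Of the 101 peaks of AY replicate 1 that ranked within 50 places of it, 31 (30.7%) lay in regions without a peak in AY replicate 3, and region 5 was one of them. The midpoints in the AY libraries that held it were 69 bp apart, and 576 bp were common to both peaks. AY replicate 1 ranked region 5 just above region 3, whereas AY replicate 2 placed region 3 first.

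Region 2, chr1:39350659-39351371, was 713 bp wide and had nearly the same relative rank in both libraries that held it. It ranked 982 in AY replicate 1 (45.6%) and 663 in AY replicate 2 (46.0%). The midpoints were 7.5 bp apart, the closest of the 4 regions with more than 1 peak, and the whole 544 bp peak of AY replicate 2 lay inside that of AY replicate 1. Region 4, chr1:39744083-39744686, was 604 bp wide and weak in both. It ranked 1817 in AY replicate 1 (84.4%) and 1200 in AY replicate 2 (83.3%), with midpoints 22.5 bp apart and 333 bp in common. Over the 805 regions held by at least 2 AY and no WT libraries, the median range of midpoints was 52 bp. Of the 4 regions, 3 lay below that median (regions 2, 3 and 4) and region 5 above it. By mean relative rank, regions 5, 3, 2 and 4 were numbers 256, 345, 366 and 764 of these 805.

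The remaining regions had 1 peak each. Region 1, chr1:39349708-39350161, ranked 1508 in AY replicate 1 (70.0%) and was 454 bp wide. Region 6, chr1:39818678-39819347, was the strongest of the single-library regions, at rank 1173 in AY replicate 1 (54.5%), and measured 670 bp. Region 7, chr1:39842468-39842892, ranked 1062 of 1086 in AY replicate 3 (97.8%), with a score of 50.7 where the lowest score in any list was 50. It was 425 bp wide and close to the threshold for being listed at all. Region 8, chr1:39917978-39918378, ranked 1647 in AY replicate 1 (76.5%) and was the narrowest at 401 bp.

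**Figure D2:**
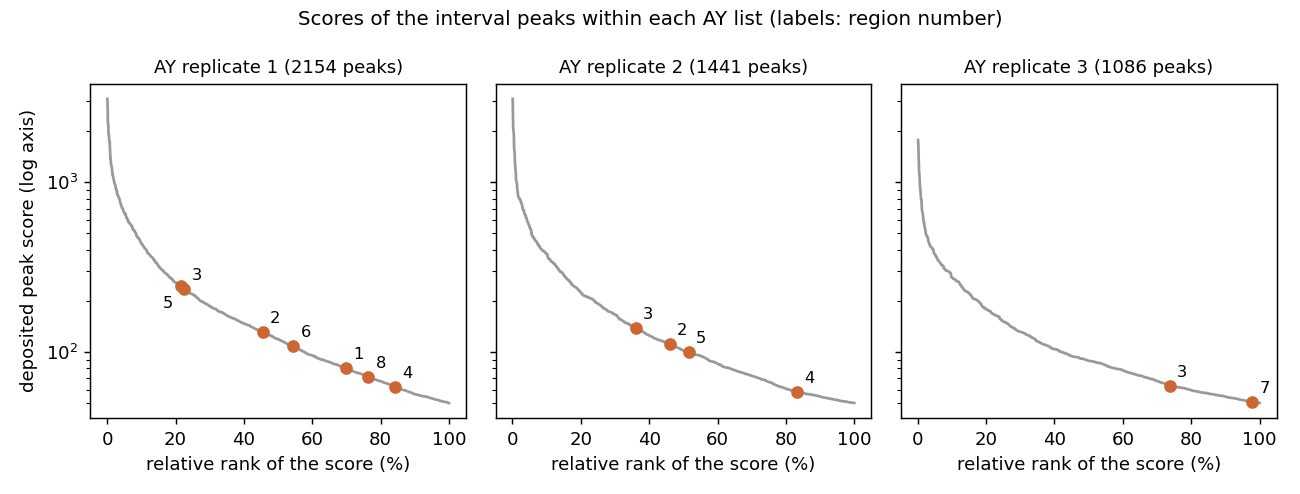
Deposited score (log axis) against relative rank in percent for the 3 AY lists. The grey line is the whole list and the dots are the peaks of the interval, labelled by region number; no dot lies among the first 20% of a list, and both dots of AY replicate 3 lie beyond 70%.

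The relative ranks of the interval's peaks reached from 21.7% to 97.8%. In AY replicate 1 the relative ranks ran from 21.7% to 84.4% with a median of 54.5%, and 3 of 7 peaks stood above the 50% mark. In AY replicate 2 they ran from 36.2% to 83.3% with a median of 48.8%, and 2 of 4 stood above it. In AY replicate 3 both peaks stood below it, at 73.8% and 97.8%. A score of at least 100 was reached by 4, 2 and 0 peaks of AY replicates 1, 2 and 3. The widths of the interval's peaks were close to those of the lists in AY replicates 1 and 2, and smaller in AY replicate 3, which had only 2 peaks there. The median width was 670 bp against 660 bp over the whole list in AY replicate 1, 560 against 586 bp in AY replicate 2, and 421 against 511 bp in AY replicate 3. By median, the 8 regions were 637 bp wide, and all regions of the data set 624 bp.

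Within the interval the AY lists were nested only in part. All 4 regions of AY replicate 2 were also held by AY replicate 1, where 82.2% of its 1437 regions in the genome were. Of the 2 regions of AY replicate 3, 1 was held by AY replicates 1 and 2, where 77.7% and 70.0% of its 1075 regions were. In the reverse direction, AY replicate 3 held 1 of the 7 regions of AY replicate 1, compared with 38.8% of 2153 regions in the genome. With so few regions these counts describe the locus and carry no test.

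The regions were unevenly spaced. They spanned 568.7 kb from the first to the last base and covered 4879 bp in sum. Regions 1 and 2 formed a close pair, 497 bp apart, and both had a peak in AY replicate 1. An empty stretch of 307.8 kb followed. Regions 3 to 8 then lay within 259.2 kb, with gaps of 84.1, 48.3, 24.9, 23.1 and 75.1 kb in that order. Of the 7 gaps, 6 were under 100 kb, and the median was 48.3 kb. Over the 4119 gaps between neighbouring regions on all chromosomes, the median was 202.4 kb and 38.7% were under 100 kb. An interval picked for its many peaks has short gaps by construction. With peaks up to 1 kb apart merged, regions 1 and 2 became 1 and the interval held 7 regions.

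Beyond the interval, peaks were sparse on both sides. The nearest region to the left, chr1:37530704-37531510, lay 1.82 Mb from region 1 and also had peaks in all 3 AY libraries and in no WT library. It ranked 402 in AY replicate 1 (18.7%), 284 in AY replicate 2 (19.7%) and 616 in AY replicate 3 (56.7%), higher in each library than every region of the interval that the library held. The nearest to the right, chr1:40090686-40091073, was 172.3 kb from region 8 and had a single peak, in WT replicate 1 at rank 1485 of 1604 (92.6%). It was thus a weak WT peak that ended the WT-free stretch. The nearest WT peaks to the left belonged to a region 2.98 Mb away, chr1:36364728-36365335, held by all 3 WT libraries and by AY replicates 1 and 3. The nearest AY peaks to the right belonged to chr1:43522563-43523438, 3.60 Mb away, held by all 3 AY libraries and by WT replicates 1 and 3.

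**Figure D3:**
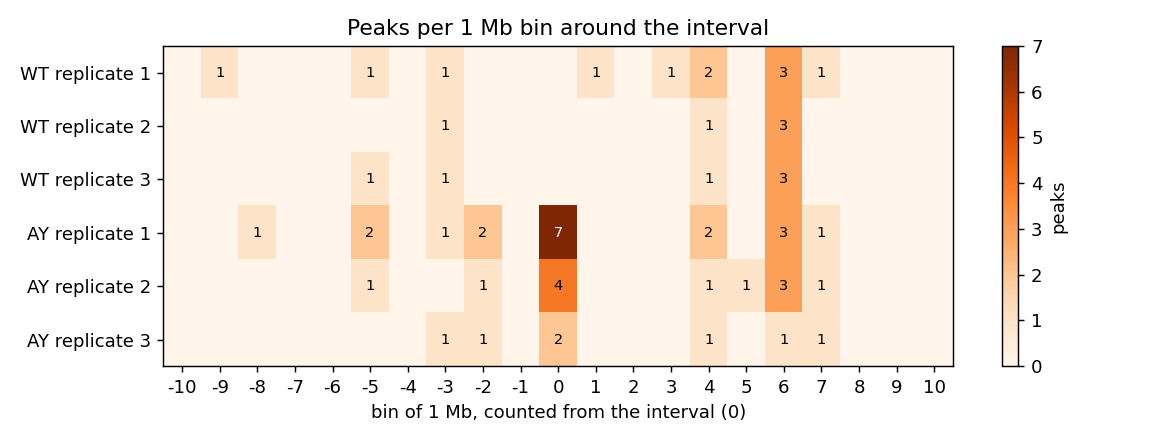
Number of peaks per 1 Mb bin in each library, from 10 bins to the left of the interval to 10 bins to its right. The interval (0) holds 7, 4 and 2 AY peaks and no WT peak, whereas the bin at 6 holds 3 peaks in each WT library and in AY replicates 1 and 2, and 1 in AY replicate 3.

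The 1 Mb on either side had too few peaks to separate the genotypes. In both flanks together, WT replicate 1 had 1 peak and the other 5 libraries had 0, which gives 0.333 ± 0.577 peaks per WT library (SD, n = 3) and 0 per AY library. The difference, AY minus WT, was -0.333 peaks (exact permutation p = 1, two-sided). With 1 peak in all, each of the 20 assignments of labels gives a difference of the same size. The p-value was therefore fixed, although untied counts would allow one as small as 0.1, and nothing is read from it. With flanks of 2 Mb, AY replicates 1, 2 and 3 had 2, 1 and 1 peaks and the WT libraries 1, 0 and 0, so that the difference turned to 1 peak (exact permutation p = 0.3).

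The WT-free stretch around the interval was 3.73 Mb long, and 10 neighbouring regions in it, the 8 of the interval with 2 to the left, had AY peaks only. A stretch of that length without a WT peak was not rare. Of 2264 gaps between neighbouring WT-held regions, 171 (7.55%) were at least as wide, and the median gap was 0.425 Mb. The number of AY regions inside the gap was at the upper end. Of 936 runs of neighbouring regions without a WT peak, this run and 2 others had 10 regions, none had more, and the median was 1. Since 8 of the 10 regions are those for which the interval was picked, this place follows from the choice. In the opposite direction, 864 runs without an AY peak had a median of 1 region and a maximum of 16.

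Divided into 1 Mb bins, the genome had peaks of any library in 1593 bins. All 3 AY libraries and no WT library had peaks in 113 of them (7.09%), and the reverse held in 51 (3.20%). The interval was 1 of the 113. Those bins had a median of 4 AY peaks and 2 regions. In the full lists the interval had 13 AY peaks, which only 1 of the others exceeded, and its 8 regions were the most of any. Because the interval was picked from these same lists for its many AY peaks, nothing is read from its place among the bins. This place depended on the lower-scoring peaks. With scores of 100 or more it had 6 AY peaks and 4 regions. Of 335 other bins without a WT peak, 12 then had more AY peaks and 20 at least as many. More regions were held by 4 of these bins and at least as many by 11. With the 826 top-ranked peaks of each library it had 6 AY peaks and 3 regions. Of 275 such bins, 10 had more AY peaks and 19 at least as many, while 3 had more regions and 14 at least as many. With peaks up to 1 kb apart merged, its 7 regions were still matched by none of 426 such bins. Bins as rich in regions generally had peaks of WT as well. Of 59 bins with 8 or more regions, 58 had a WT peak, the interval being the exception, and 1 had no AY peak. Of 36 bins with 13 or more AY peaks, 34 also had WT peaks, at least 2 in each and a median of 11.

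**Figure D4:**
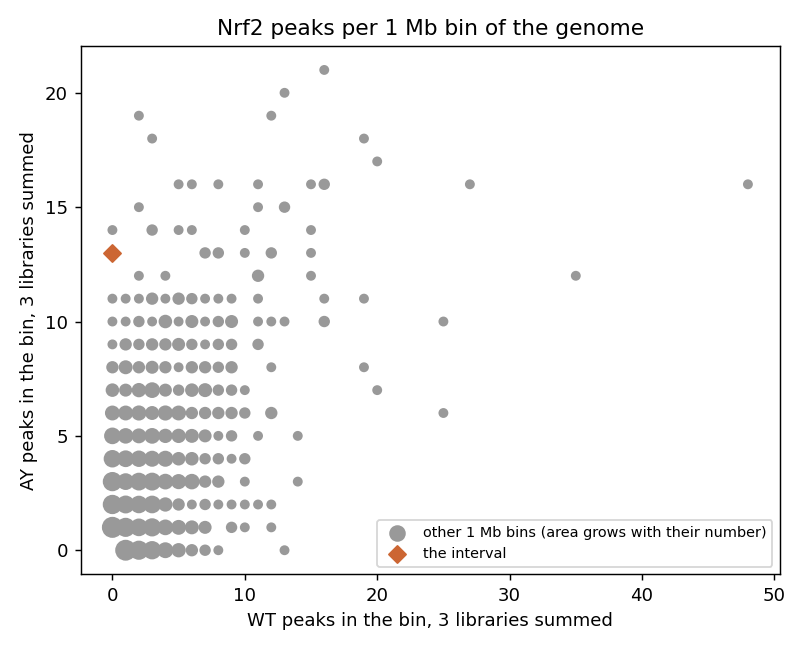
AY against WT peaks in each 1 Mb bin with a peak, summed over the 3 libraries of a genotype. The interval (diamond, 13 AY and 0 WT peaks) and the bin with 14 AY peaks lie above the other bins on the axis of 0 WT peaks, which reach 11. The interval was picked from these lists for its many AY peaks and lack of WT peaks, so nothing is read from its place.

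The bins most like the interval, by the number of AY peaks where WT had none, lay on other chromosomes. On chromosome 15, 67000001 to 68000000 had 7, 5 and 2 peaks in AY replicates 1, 2 and 3, nearly the same numbers as the interval, in 7 regions of which 2 were held by all AY libraries. Its best peak had a relative rank of 8.31%, against 21.7% in the interval. The median relative rank of its peaks was 45.1%, against 54.5% in the interval. On chromosome 4, 62000001 to 63000000 had 5, 3 and 3 peaks in 5 regions, 3 of them held by all AY libraries. The median relative rank of its peaks was 13.0%, against 54.5% in the interval. On chromosome 16, 33000001 to 34000000 had 5, 3 and 2 peaks in 5 regions, with 2 in all AY libraries and a median relative rank of 39.6%. The interval thus had the most regions of these 4 bins and the fewest held by every AY library, and its median relative rank was the lowest-placed.

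In the opposite direction, the bin with most WT peaks and no AY peak was 3000001 to 4000000 of chromosome X, where WT replicates 1, 2 and 3 had 2, 0 and 11 peaks. Most of its peaks came from 1 library, as did 7 of the 13 in the interval, and no region of it was held by all 3 WT libraries. On chromosome 8, 35000001 to 36000000 had 3, 2 and 3 WT peaks in 3 regions, of which 2 were in all WT libraries. A pair of bins followed with 7 WT peaks each, 75000001 to 76000000 of chromosome 10 and 95000001 to 96000000 of chromosome 11, both with 4 regions and 1 held by all WT libraries.

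Promoter sequences were searched for the core of the antioxidant response element. RefSeq promoter windows on GRCm38, 300 bases from 250 before to 50 after a gene's start, were matched for 5 of the 6 genes (Npas2, Tbc1d8, Rnf149, Creg2 and Rfx8), 6 windows in all. None held TGACNNNGC on either strand, which 12.4% of all 32851 windows did. The AP-1-like core TGANTCA was also in 0 of 6, against 7.81% of all windows, and a longer Maf-type form of the element in 0 of 6, against 1.41%. A missing match says only that these letters are not in these windows. The windows could not be set against the peaks, which are on mm9, and the DNA sequence under the peaks was not analysed here.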

How the data were processed

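Nrf2 ChIP-seq of macrophages was analysed from peak lists. The authors deposited 1 list per ChIP library (3 WT, 3 AY), so peaks were called per library. The submitters' processing notes name MACS 1.4, Bowtie2 and bcl2fastq 2.15.0, with build mm9. Settings, duplicate handling and the control of each call were not given in the sources used here. Each peak's deposited score, never below 50, was read as -10 log10 of its p-value. It moves with depth and control, so the strength of peaks was compared by rank within a list. A cutoff of 100 on the score itself was also applied to all lists. The median score ran from 88.8 in AY replicate 3 to 118.8 in AY replicate 1, so this cutoff is not equally strict for each. Input libraries were not analysed here, and read depth is unknown.

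Starts are printed counting from 1. Peaks were merged at an overlap of at least 1 bp; 1 Mb bins took peaks by their midpoint. The merging was tested on simulated regions that lay far apart, so it was not tested on close neighbours or slight overlaps. Python 3.11.15, pandas 2.3.3 and SciPy 1.17.1 were used, with a two-sided exact permutation test for the flanks. The interval, its genes and the comparisons were chosen with earlier results of these data known. Every region of the interval is described, in full where at least 2 AY libraries held it, with the nearest peaks outside and the 3 other bins richest in peaks of 1 genotype alone (4 where tied). Alternatives were a score of at least 100, equal list lengths, other merging, bins and flanks, a moved interval, libraries left out and the replicate number as a block. Since separate animals are not stated, p-values measure only how these libraries spread, possibly for technical reasons.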

Additional observations from a re-analysis of the deposited data

How the results depend on the processing

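The absence of WT peaks was fixed by the choice of the interval, and settings that keep it in place can only remove or merge peaks. Moved 500 kb to the right, it took in the peak of WT replicate 1 (a mean of 0.333 WT peaks). Moved 500 kb to the left it held 2 regions, a mean of 1 AY peak, 0 regions in all AY libraries and 1 in at least 2 of them. Requiring scores of 100 or more left 4 regions, 0 in all AY libraries and 2 in at least 2 of them. With equal lists (the 826 top-ranked peaks of each library) 3 regions were left, 2 of them in at least 2 AY libraries. Leaving out a library gave 5 to 8 regions, the fewest without AY replicate 1, and 1 to 4 regions held by at least 2 AY libraries, 1 without either AY replicate 1 or 2. Regions held by every remaining AY library numbered 1 to 4, the 4 without AY replicate 3, where only 2 libraries had to hold them. The mean of 4.33 AY peaks per library was 2 both with scores of 100 or more and with equal lists, and was 3 to 5.5 without a library. The place of the interval among bins without WT peaks was rerun after the data were seen. Bins with peaks in all AY and no WT libraries numbered 59 with 2 Mb bins, fewer and wider bins by construction. The flank difference of -0.333 peaks turned to 1 with 2 Mb flanks and ran from -0.5 to 0 without a library, 0 without WT replicate 1. As a paired value (replicate block) it was -0.333 (exact sign-flip p = 1), and the AY excess in the interval 4.33 peaks. With a single flank peak this sign-flip p was fixed, and the usual minimum of 0.25 could not be reached. The libraries were not treated as pairs: deviations of same-numbered libraries correlated at 0.0961, 0.0861 and 0.195 over 1897 regions, although all 6 libraries correlated best with their own number. Unknown depth limits each absence of a peak.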
